A study of Mus musculus with 24 samples.

Results

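Aminoacyl-tRNA synthetases join each amino acid to its tRNA, the step that supplies the ribosome. The 35 genes described here are 18 genes of cytosolic synthetases, 3 genes of the scaffold that holds several of those enzymes in one complex (Aimp1, Aimp2, Eef1e1) and 14 genes of mitochondrial synthetases. They were taken by symbol from the 49568 gene symbols of the deposited table, and all 35 were found and passed the expression filter in each comparison. Eprs, the target of the drug, was not among them, nor was Qars. Their cells were NIH/3T3, an established line of mouse fibroblasts, and no genotype differed between groups. Cells received halofuginone, an inhibitor of the prolyl activity of Eprs, or the vehicle PBS, for 24 h in both cases. RNA came from whole cells (total RNA) or from 3 pools of a polysome gradient, which sorts mRNAs by how many ribosomes they carry: a ribosome-free pool, a light pool and a heavy pool of more than 5 ribosomes. The 2 treatments and 4 kinds of RNA gave 8 groups of 3 libraries.

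Mammalian cells use separate nuclear genes for most cytosolic and mitochondrial synthetases, and the mitochondrial enzymes are imported to serve the ribosomes that translate mitochondrial DNA. Gars and Kars are exceptions, since each makes the enzyme of both compartments, and they are counted here with the cytosolic genes. Uncharged tRNA activates the kinase Gcn2, which lowers general translation but raises that of the transcription factor Atf4. Atf4 is known to drive a program of amino acid supply that includes many cytosolic synthetase genes.

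By their column headers the libraries belong to 2 sets. From each group 1 library, 8 in all, is in set A, with gradient fractions 1 to 2, 3 to 6 and 7 to 11 pooled. Headers of set A name a halofuginone dose of 50 nM, although the labels state 100 nM for every treated sample. Set B holds 16 libraries, 2 of each group, with fractions 1 to 5, 6 to 13 and 14 to 21 pooled; their tags are 2 and 3 in total RNA and 2 and 4 in the pools. The values of 3 libraries are given below in the order set A, tag 2 and then tag 3 or 4. Depth was 10.3 to 25 megacounts, of which the 35 genes took 0.118% to 1.17%. Of 8 fibroblast markers, 7 reached 5 CPM (counts scaled to a common library total) in vehicle total RNA, with a summed level of 16279 to 18549 CPM, while 0 of 4 epithelial, 0 of 4 leukocyte and 0 of 4 endothelial markers did. Of 4 adipocyte markers, 1 did, and their sum was 9.74 to 13.3 CPM in vehicle and 0.908 to 5.44 CPM with halofuginone. Mitochondrially encoded RNA took 8.69% and 11.1% of counts in the ribosome-free pools of set A and 22.9% to 34.9% in those of set B. The labels call the triplicates biological, but tags are not linked to cultures, and the p-values below reflect the spread of these libraries alone.

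In vehicle cells the cytosolic synthetases were the more abundant. Per kilobase of exon, the median level in total RNA was 35.7 CPM per kilobase for cytosolic synthetases, 11.1 for the scaffold and 5.37 for mitochondrial synthetases. The cytosolic genes ran from Farsa, the catalytic chain of the phenylalanine enzyme, at 15.1 ± 1.24 to Gars, the glycine enzyme, at 108 ± 11.8 CPM per kilobase (SD, n = 3). Sars, for serine, followed at 69.1 ± 15.9, Nars, for asparagine, at 61.0 ± 5.89, and Aars, for alanine, at 58.5 ± 12.6 CPM per kilobase. The order depends on these lengths, which merge all annotated exons (9282 bases for Aars and 3119 for Gars). By CPM alone Aars was highest at 543, then Sars at 355 and Gars at 337. The mitochondrial genes ran from Nars2 at 1.32 ± 0.117 to Iars2, for isoleucine, at 17.7 ± 0.993 CPM per kilobase. Its mean was thus above those of Cars and Farsa, but it differed from Cars by no more than the larger SD. Of the 34 pairs of neighbours in the order per kilobase, 22 differed by no more than the larger SD. They included Sars with Nars and Nars with Aars.

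In total RNA with halofuginone, cytosolic synthetase mRNAs were higher in set B and close to vehicle in set A. Wars, the tryptophan enzyme, stood at 96.3, 80.5 and 94.8 CPM in vehicle and at 107, 406 and 396 CPM with halofuginone. Rars, for arginine, stood at 184, 168 and 165 CPM against 230, 489 and 463 CPM. The groups of these 2 genes did not overlap, but the set A library of halofuginone lay near the vehicle libraries.

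Tars, for threonine, stood at 167, 147 and 153 CPM in vehicle and at 151, 441 and 430 CPM with halofuginone. Yars, for tyrosine, stood at 254, 170 and 194 CPM against 250, 551 and 534 CPM. In both genes the set A value with halofuginone fell inside the vehicle range, so the groups overlapped. The 2 cytosolic genes with the smallest difference were Hars, for histidine, at 116, 99.4 and 106 CPM in vehicle and 110, 137 and 131 CPM with halofuginone, and Mars, for methionine, at 140, 95.3 and 101 against 124, 116 and 109 CPM.

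The scaffold genes followed the same division. Eef1e1 encodes the smallest scaffold protein, and its mRNA stood at 23.4, 23.3 and 20.52 CPM in vehicle and at 19.04, 87.0 and 83.4 CPM with halofuginone. Aimp2, which links the enzymes of the complex, stood at 46.2, 33.2 and 33.9 CPM against 50.3, 72.6 and 68.7 CPM. For Aimp1 the values were 69.6, 56.2 and 61.0 CPM against 84.1, 108 and 97.5 CPM. The groups of Aimp1 and Aimp2 did not overlap, while the set A halofuginone value of Eef1e1 was the lowest of the 6.

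**Figure D1:**
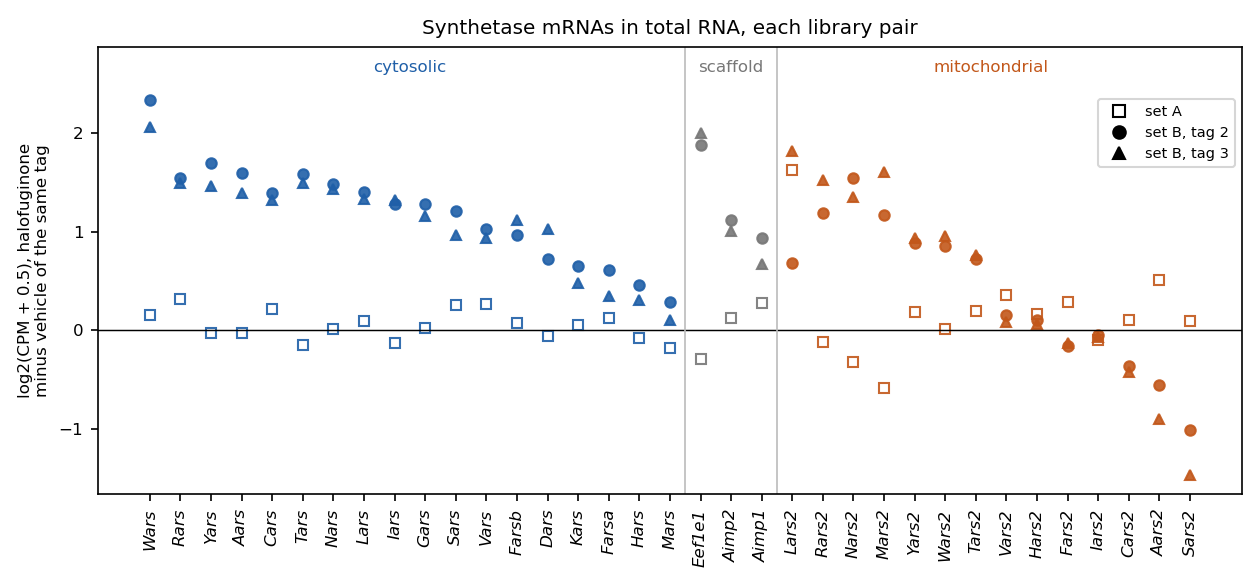
Change of each of the 35 mRNAs in total RNA, as log2(CPM + 0.5) with halofuginone minus the vehicle library of the same column tag; open squares are the set A pair, filled circles and triangles the tag 2 and tag 3 pairs of set B, and genes are ordered by their mean within each class. In the cytosolic class the 3 pairs had medians of 0.042 (set A), 1.28 (tag 2) and 1.24 (tag 3), and in the mitochondrial class 0.13, 0.42 and 0.42.

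Mitochondrial synthetases moved in both directions in set B. Lars2, for leucine, stood at 81.4, 175 and 90.9 CPM in vehicle and at 251, 281 and 321 CPM with halofuginone, and was the member with the largest change in the set A pair. Nars2, for asparagine, stood at 8.67, 8.76 and 10.1 CPM against 6.85, 26.5 and 26.6 CPM. Sars2, for serine, was low in set B with halofuginone, with 21.4, 16.6 and 18.8 CPM in vehicle and 22.9, 7.98 and 6.48 CPM with the drug. Aars2, for alanine, stood at 21.1, 22.5 and 27.0 CPM against 30.3, 15.1 and 14.3 CPM. Only the groups of Lars2, of these 4 genes, did not overlap over all 3 libraries.

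Over all 6 libraries of total RNA, edgeR called 0 of the 35 members and 0 of 13020 genes (0.0%) at an adjusted p under 0.05 (quasi-likelihood test, Benjamini-Hochberg adjustment). DESeq2 called 5 members (Cars, Rars, Vars, Wars and Lars2), all higher, against 1.87% of the 23987 genes it took. That share includes genes that fail the expression filter, which every member passed, so it is not comparable with the edgeR shares. The log2 fold change was above 0 for 18 of 18 cytosolic synthetases, with a median of 0.92 and a range from 0.052 (Mars) to 1.74 (Wars). Its median was 0.76 for the scaffold genes, 0.39 for the mitochondrial synthetases, of which 10 of 14 were above 0, and 0.017 over all genes, of which 51.3% were above 0. An unadjusted p under 0.05 was reached by 15 cytosolic, 3 scaffold and 4 mitochondrial genes, all higher, where 11.2% of all genes did so in that direction. The 3 libraries of each group did not overlap, with halofuginone higher, in 10 cytosolic, 2 scaffold and 6 mitochondrial genes, against 12.2% of all genes; 0 members were lower without overlap, against 11.6%.

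Within set B, which has 2 libraries a group, edgeR called 30 of the 35 members, in a comparison that called 70.0% of 13334 genes (33.1% higher and 36.9% lower). Of the cytosolic synthetases 17 of 18 rose, with a median log2 fold change of 1.22. Wars rose by 2.15 ± 0.094 (SE; edgeR adjusted p = 1.1e-06), Yars by 1.53 ± 0.084 (3.0e-06), Tars by 1.49 ± 0.071 (1.5e-06) and Rars by 1.47 ± 0.071 (1.6e-06). Mars was the exception, at 0.15 ± 0.075 (edgeR adjusted p = 0.110). All 3 scaffold genes rose, Eef1e1 by 1.91 ± 0.090, Aimp2 by 1.03 ± 0.077 and Aimp1 by 0.76 ± 0.083. The SEs and p-values of set B rest on the spread within 2 pairs of libraries that lay close together, as described below.

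Of the 14 mitochondrial synthetases in set B, 7 rose (Nars2, Mars2, Rars2, Lars2, Yars2, Wars2 and Tars2, by 1.45 to 0.71), 3 fell and 4 passed in neither direction. Sars2 fell by 1.34 ± 0.14 (edgeR adjusted p = 8.7e-05), Aars2 fell by 0.79 ± 0.12 (0.00062) and Cars2, for cysteine, fell by 0.45 ± 0.10 (0.0054). Fars2, Hars2, Iars2 and Vars2 had log2 fold changes from -0.20 to 0.077. The median over these 14 genes was 0.39, so the cytosolic median exceeded it by 0.82; the median over all genes was -0.024. Calls were common over the whole table in set B, so the sizes and directions describe the members more than the number called does.

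The set A library of halofuginone decided these counts: without it, and with all 3 vehicle libraries kept, edgeR called 30 members and 61.3% of all genes. In that library the stress genes Ddit3, Trib3 and Asns stood at 82.4, 29.4 and 240 CPM, against 87.5, 13.3 and 218 CPM in the set A vehicle library. In set B they stood at 548, 231 and 436 CPM (tag 2) and 514, 215 and 413 CPM (tag 3), against 47.8, 14.8 and 178 CPM and 61.0, 13.3 and 168 CPM in vehicle. The part of the named dose or of the library set in this difference was not tested. The tag 2 and tag 3 halofuginone libraries were also the closest pair of any group, at a mean chi-square of 3.12 over genes. The pair that came next, at 21.1, was that of the tag 2 and tag 3 vehicle libraries. Both values exceed sampling noise, but this does not show that the libraries of a pair come from separate cultures. The halofuginone pair was kept as 2 libraries. The SEs, p-values and share of genes called in set B of total RNA rest on the spread within these 2 pairs.

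Enzymes inside and outside the multisynthetase complex, and of both structural classes, were among the cytosolic genes that rose in set B. The 6 members that sit in the multisynthetase complex (Dars, Iars, Kars, Lars, Mars, Rars) had a median log2 fold change of 1.04 in set B, with 5 called. The other 12 cytosolic enzymes had a median of 1.24, with 12 called. Of all genes 33.1% were called higher there, and the difference between these subgroups was not tested. Enzymes of class I, with the nucleotide-binding fold, had a median of 1.32 over 8 genes and those of class II, with an antiparallel sheet at the active site, a median of 1.02 over 10. Farsa and Farsb make the 2 chains of 1 enzyme, and their values in set B were 0.44 ± 0.084 and 1.00 ± 0.086. The genes that serve both compartments gave 1.17 ± 0.070 for Gars and 0.52 ± 0.076 for Kars.

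The next comparison sets enzymes for the same amino acid beside each other, since 14 amino acids have a member in each compartment. The log2 ratio of the cytosolic to the mitochondrial gene per kilobase was higher with halofuginone in 12 of 14 pairs in total RNA, with a median difference of 0.39. For Sars over Sars2 it was 3.75, 3.50 and 3.49 in vehicle and 3.91, 5.77 and 5.997 with halofuginone. For Cars over Cars2 it was 2.45, 2.33 and 2.26 against 2.57, 4.10 and 4.02, and for Wars over Wars2 2.66, 2.41 and 2.68 against 2.80, 3.88 and 3.78. These 3 pairs did not overlap, which gives an exact two-sided permutation p of 0.1, the smallest that 3 libraries against 3 allow, so no pair could pass. Mars over Mars2 went the other way in set B: the ratio was 4.65, 3.802 and 4.19 in vehicle and 5.08, 2.91 and 2.66 with halofuginone. Within set B 10 ratios were higher without overlap and 1, that of Mars, was lower. The matching shares over other pairs of genes were not counted, and edgeR called 70.0% of all genes in set B.

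**Figure D2:**
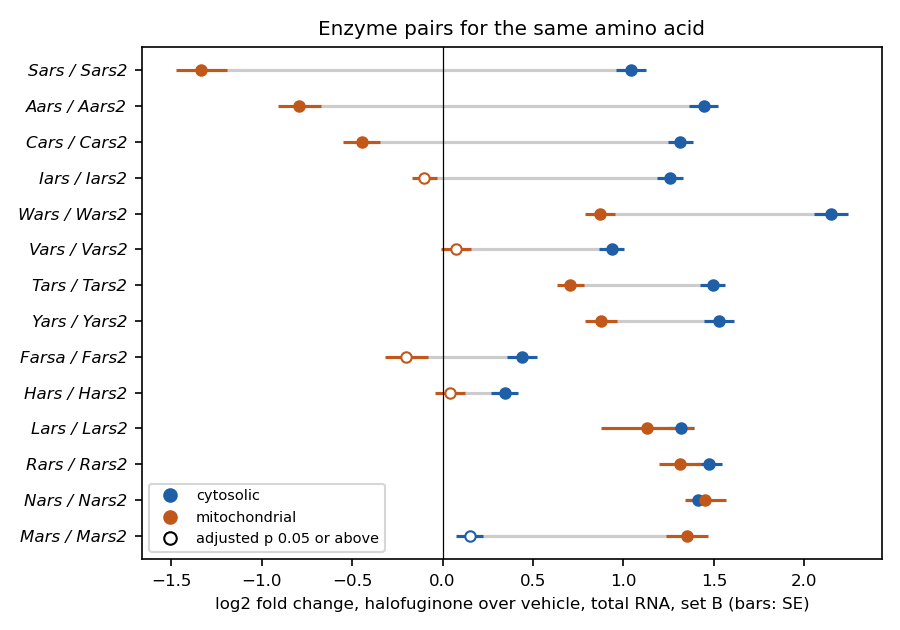
Log2 fold change in total RNA of set B (halofuginone over vehicle, 2 libraries each) for the cytosolic and the mitochondrial gene of 14 amino acids, with bars for the SE; open points had an adjusted p of 0.05 or above. The 2 genes lie far apart for serine (1.04 and -1.34) and alanine (1.44 and -0.79), close together for asparagine (1.41 and 1.45), and in the opposite order for methionine (0.15 and 1.35).

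Some members share exon sequence with a gene on the other strand. The library kit keeps strand, but the strand setting of the counting is not given in the sources used here, so reads of such genes might not be told apart. Among the 35 members 14 had an exon that overlaps another gene and 11 overlapped a protein-coding gene. Mars (chr10:127296221-127311786 in GRCm38, minus strand) overlaps the stress gene Ddit3, which rose by 3.24 ± 0.12 in set B. Hars overlaps Hars2, Aimp2 overlaps Eif2ak1 and Yars overlaps C77080; Cars2, Fars2, Iars2, Aimp1 and others have such partners too. Wars (chr12:108860030-108894174, minus strand), Rars, Tars, Eef1e1, Sars2 and Aars2 had no overlapping exon.

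Promoters were searched for TGATGNAA, the core of the C/EBP-ATF response element at which Atf4 binds with a C/EBP partner, on both strands (TTNCATCA on the other). RefSeq promoters of GRCm38.p6, from 250 bases before to 50 after the start of the gene, were matched for 27 of the 35 members. Those of Cars, Hars, Lars, Nars, Rars, Vars, Wars and Hars2 were not used here. The core was found in 5 of 11 cytosolic, 0 of 3 scaffold and 0 of 13 mitochondrial promoters, and in 4.51% of 27025 promoters of the table, a share at which a count of 0 in 13 or 3 promoters says little; whether the compartments differ was not tested. A match from each of the 5 promoters, shown so that the letters can be compared, is given with 11 bases on either side, 5′ to 3′ on the strand of the gene and with the match in capitals:
Yars (chr4:129189895-129189924, plus strand): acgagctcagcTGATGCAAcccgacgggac
Gars (chr6:55037960-55037989, plus strand): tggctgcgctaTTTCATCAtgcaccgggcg
Aars (chr8:111033840-111033869, plus strand): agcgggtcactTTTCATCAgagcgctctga
Iars (chr13:49682126-49682155, plus strand): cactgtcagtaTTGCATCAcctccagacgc
Tars (chr15:11399655-11399684, minus strand): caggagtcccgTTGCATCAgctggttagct
Only Yars holds the core in the orientation of the gene, while the other matches shown read it on the opposite strand. In set B these 5 genes had log2 fold changes from 1.17 (Gars) to 1.53 (Yars) with a median of 1.44, and the 6 cytosolic genes whose promoter lacks a match had 0.15 (Mars) to 1.04 (Sars) with a median of 0.67. Over all 3 libraries the medians were 1.04 and 0.53. The 7 cytosolic genes whose promoters were not used are outside this contrast, which covers 11 of 18. Among them Cars, Lars, Nars, Rars (1.47) and Wars (2.15) rose more in set B than any gene without a match. Hars (0.34) and Vars rose less than Sars. Whether a match goes with a larger change was not tested. A match is a description of these letters and not a shown binding site.

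The other genes of tRNA charging are a list of 23. Over all 3 libraries edgeR called 0 of them, with 5 higher and 1 lower at an unadjusted p under 0.05, against 11.2% and 6.43% of all genes. In set B 10 of them rose and 6 fell, where 33.1% of all genes rose and 36.9% fell, a share called near that of the whole table. Xpot, which exports tRNA from the nucleus, rose by 1.76 ± 0.076, Eprs by 1.71 ± 0.076, the mitochondrial glutamate enzyme gene Ears2 by 1.36 ± 0.10, and Trnt1, which adds the CCA end of tRNAs, by 1.25 ± 0.082. Qars, the cytosolic glutamine enzyme, fell by 1.06 ± 0.070, and Tarsl2, a second cytosolic threonine enzyme, fell by 0.74 ± 0.10. Eef1a1, the factor that carries charged tRNA to the ribosome, fell by 0.65 ± 0.074.

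In the polysome pools the pairs of libraries went different ways for the cytosolic genes. On heavy polysomes Wars stood at 155, 76.7 and 99.7 CPM in vehicle and at 338, 72.1 and 418 CPM with halofuginone. Aars stood at 447, 239 and 433 CPM against 849, 171 and 1253 CPM. Lars, for leucine, stood at 93.5, 49.1 and 84.1 CPM against 152, 54.7 and 277 CPM. In Wars and Aars the set A and tag 4 libraries were high with halofuginone and the tag 2 library was below its vehicle, while Lars was above its vehicle in every pair, least in tag 2. The groups of all 3 genes overlapped. Over the cytosolic genes the same-tag medians were 0.70 (set A), -0.30 (tag 2) and 1.18 (tag 4), with 17, 2 and 18 of 18 genes above 0.

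The stress gene Ddit3 divided in the same way, and Trib3 was above its vehicle in every pair. On heavy polysomes Ddit3 and Trib3 stood at 98.5 and 273 CPM in set A with halofuginone and at 602 and 674 CPM in tag 4, against 41.0 and 17.8 CPM and 121 and 159 CPM in vehicle. In tag 2 they stood at 37.8 and 74.3 CPM with halofuginone against 69.8 and 50.8 CPM. What set the tag 2 library apart was not tested. The mitochondrial genes had smaller same-tag medians on heavy polysomes, of 0.15, 0.012 and 0.36.

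**Figure D3:**
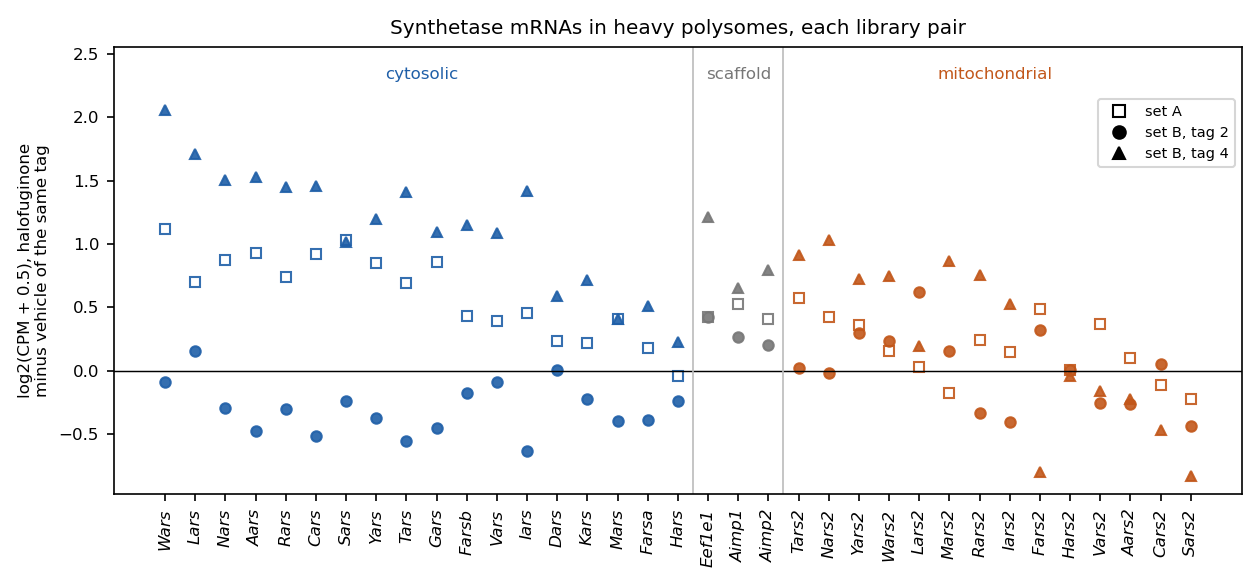
Change of each of the 35 mRNAs on heavy polysomes, as log2(CPM + 0.5) with halofuginone minus the vehicle library of the same column tag; open squares are the set A pair, filled circles and triangles the tag 2 and tag 4 pairs of set B. Cytosolic synthetases lie mostly above 0 in set A and tag 4 (medians 0.70 and 1.18) and mostly below 0 in tag 2 (median -0.30).

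On heavy polysomes 9 members were above their vehicle in all 3 pairs (Dars, Lars, Lars2, Tars2, Wars2, Yars2 and the 3 scaffold genes), where 20.7% of all genes were, and 1 member, Sars2, was below in all 3, where 24.7% were. Eef1e1 stood at 40.9, 48.7 and 38.8 CPM in vehicle and at 55.2, 65.6 and 90.7 CPM with halofuginone. Yars2, for tyrosine, stood at 49.7, 47.7 and 47.5 CPM against 63.8, 58.7 and 78.8 CPM, and Wars2, for tryptophan, at 22.9, 19.8 and 22.6 against 25.6, 23.3 and 38.2 CPM. Sars2 was lower, at 27.6, 23.9 and 35.4 CPM against 23.6, 17.6 and 19.6 CPM. These 4 were the only members whose groups did not overlap there, against 5.4% of all genes higher and 7.06% lower, and 0 of the 18 cytosolic synthetases were among them.

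Sars2 and Yars2 were likewise the members without overlap in light polysomes, where 4.43% of all genes were higher and 5.97% lower. There Sars2 stood at 20.02, 18.1 and 22.8 CPM in vehicle and at 18.05, 13.7 and 10.7 CPM with halofuginone, and Yars2 at 29.9, 29.6 and 28.5 against 41.6, 37.6 and 56.3 CPM. In the ribosome-free pool Nars and Vars2 were higher and Rars2 was lower without overlap (all genes: 1.15% higher, 0.853% lower). The values of Nars there were 96.0, 102 and 98.2 CPM in vehicle and 168, 103 and 105 CPM with halofuginone.

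No member passed the test in any pool. edgeR called 0 of 12222 genes (0.0%) on heavy polysomes, 0 of 12632 (0.0%) on light polysomes and 0 of 11960 (0.0%) in the ribosome-free pool, and DESeq2 called 0 members in each. The unadjusted edgeR p was under 0.05 for 1 member on heavy polysomes, 2 on light polysomes and 0 in the ribosome-free pool, against 6.17%, 4.27% and 0.251% of all genes. The median log2 fold change of the cytosolic genes was 0.79 on heavy polysomes, 0.60 on light polysomes and 0.25 in the ribosome-free pool. For the mitochondrial genes the medians were 0.19, 0.15 and 0.028, and for the scaffold 0.52, 0.62 and 0.17. Without the tag 2 libraries, an alternative chosen after seeing the data, the cytosolic median exceeded the mitochondrial one by 0.75 on heavy, 0.59 on light polysomes and 0.42 in the ribosome-free pool, with 0 members called in each. Leaving out any 1 library moved that difference over 0.29 to 0.85 on heavy, 0.30 to 0.73 on light polysomes and -0.074 to 0.43 in the ribosome-free pool.

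The test of whether the change on heavy polysomes differed from that in total RNA called 0 of 13459 genes (0.0%) and 0 members in edgeR, with 0 members at an unadjusted p under 0.05, where 0.951% of all genes were. Its median was -0.14 for the cytosolic genes, -0.15 for the mitochondrial genes and -0.23 for the scaffold, each over the same 12 libraries. The value farthest from 0 among the members was that of Lars2, at -0.97 ± 1.23 (SE). Lars2 stood at 109, 416 and 1151 CPM on light polysomes of vehicle cells and at 82.0, 325 and 1151 CPM with halofuginone. On heavy polysomes it stood at 47.8, 225 and 645 CPM against 48.8, 346 and 739 CPM. In both pools its level differed more between libraries of a group than between same-tag libraries of the treatments.

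Position on the gradient was then compared within each treatment. In vehicle cells several synthetase mRNAs were enriched on heavy polysomes over the ribosome-free pool, most of them cytosolic. For this comparison CPM was scaled over all pools together, so the values differ from those above, which were scaled within a pool. Aars stood at 70.5, 53.4 and 70.5 CPM in the ribosome-free pool and at 369, 200.5 and 364 CPM in the heavy pool. Iars, for isoleucine, stood at 14.8, 12.6 and 6.13 CPM against 93.3, 41.8 and 30.6 CPM. Among mitochondrial genes Iars2 stood at 18.2, 25.03 and 20.2 CPM against 90.4, 73.4 and 60.1 CPM. The pools of these 3 genes did not overlap.

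Eef1e1 lay the other way in every vehicle pair, most in set A, with 113, 54.5 and 44.8 CPM in the ribosome-free pool and 33.8, 41.0 and 32.7 CPM in the heavy pool on the same joint scale. Each library is scaled to its own total, so these ratios place an mRNA relative to the other mRNAs of the pools and do not give the share of it that is translated.

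In vehicle edgeR called 3616 of 12225 genes (29.6%; 11.9% toward heavy, 17.7% toward ribosome-free) and 12 members, all toward heavy polysomes. They were 8 cytosolic genes, from Vars at 1.43 ± 0.45 to Iars at 2.14 ± 0.53, with Aars at 2.11 ± 0.41, Hars at 1.92, Lars at 1.91, Yars at 1.84, Wars at 1.83 and Gars at 1.81, and 4 mitochondrial genes. Those were Iars2 at 1.69 ± 0.32, Aars2 at 1.34 ± 0.36, Vars2 at 1.31 ± 0.30 and Hars2 at 1.24 ± 0.34. The median was 1.06 for the cytosolic genes, 0.38 for the mitochondrial genes, 0.71 for the scaffold and -0.020 for all genes. Eef1e1 had -1.17 ± 0.44 (edgeR adjusted p = 0.073). The count was 22 without the set A ribosome-free library, where 47.2% of genes were called, and 19 in set B alone, where 45.4% were, and it was 0 without both tag 2 libraries, where 6.34% of genes were called.

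With halofuginone edgeR called 2578 of 12238 genes (21.1%; 8.47% toward heavy) and 10 members, all of which were also called in vehicle. Aars had 2.85 ± 0.69, Lars 2.61, Yars 2.49, Wars 2.46, Iars 2.46, Gars 2.38 and Hars 2.03, and the mitochondrial genes Iars2 1.91 ± 0.40, Aars2 1.34 and Hars2 1.17. The medians were 1.58 for the cytosolic and 0.92 for the mitochondrial genes. This count was 2 without the tag 2 ribosome-free library, the tag 4 ribosome-free library or the tag 4 heavy library (13.6%, 10.2% and 8.53% of genes called), 3 without the set A heavy library (5.43%) and 16 without the set A ribosome-free library (28.7%). DESeq2 called 19 members, against 16.2% of 22685 genes, and edgeR with no filter called 20, against 15.7% of 22713 genes. These 2 shares include genes that fail the expression filter, which every member passed. They are therefore not comparable with the share of 21.1%.

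The difference between the treatments in this ratio was tested directly over 12 libraries. edgeR called 0 of 13053 genes (0.0%) and 0 members, with 0 members at an unadjusted p under 0.05 (0.406% of all genes), and DESeq2 called 0 members. The difference was above 0 for 18 of 18 cytosolic genes, with a median of 0.56, and for 9 of 14 mitochondrial genes, with a median of 0.18; 58.2% of all genes were above 0, with a median of 0.084. The pairs of libraries differed: the same-tag difference was above 0 for 15 of 18 cytosolic genes in set A (median 0.16) and 17 in tag 4 (1.24), but for 2 in tag 2 (-0.32). The cytosolic minus the mitochondrial median, 0.37 over all libraries, was 0.12 to 0.70 when leaving out a library.

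**Figure D4:**
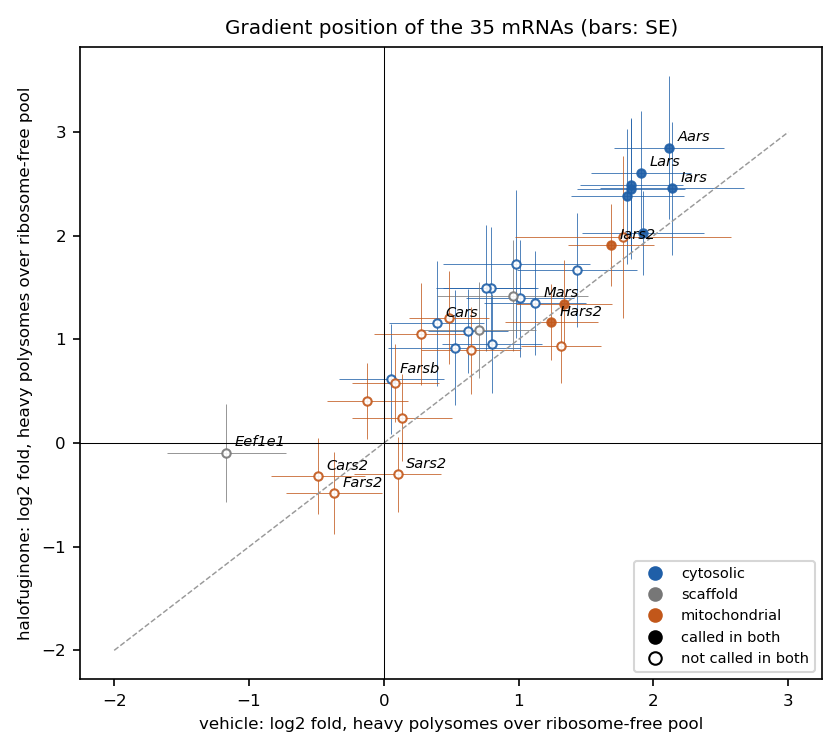
Log2 fold of heavy polysomes over the ribosome-free pool for the 35 mRNAs in vehicle cells (horizontal axis) and with halofuginone (vertical axis), with bars for the SE and a dashed line of equality; filled points were called in both treatments. The 10 filled points are 7 cytosolic and 3 mitochondrial genes, and Eef1e1 has the lowest value in vehicle (-1.17).

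The 2 compartments were last compared in every library by the difference of their median levels, a value that does not depend on how libraries are scaled. In total RNA the cytosolic median exceeded the mitochondrial one by 2.91, 2.73 and 2.56 on the log2 scale in vehicle and by 2.74, 3.52 and 3.49 with halofuginone, means of 2.74 ± 0.18 and 3.25 ± 0.44 (SD, n = 3). Only the set A library with halofuginone lay inside the vehicle range. On heavy polysomes it was 2.97, 2.15 and 2.62 against 3.82, 2.09 and 3.91, means of 2.58 ± 0.41 and 3.27 ± 1.02. On light polysomes it was 2.76, 1.92 and 2.16 against 3.09, 1.79 and 2.98, means of 2.28 ± 0.43 and 2.62 ± 0.72.

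In the ribosome-free pool the difference was 1.96, 2.22 and 2.30 in vehicle and 2.51, 2.19 and 2.22 with halofuginone, means of 2.16 ± 0.18 and 2.31 ± 0.18. The groups overlapped in all 4 kinds of RNA. The set A library with halofuginone was the lowest of the 3 treated ones in total RNA and the highest of the 6 in the ribosome-free pool, and the tag 2 library with halofuginone was the lowest of the 6 in light and heavy polysomes. Since genes were chosen with earlier results known, these values are a description with no test.

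**Figure D5:**
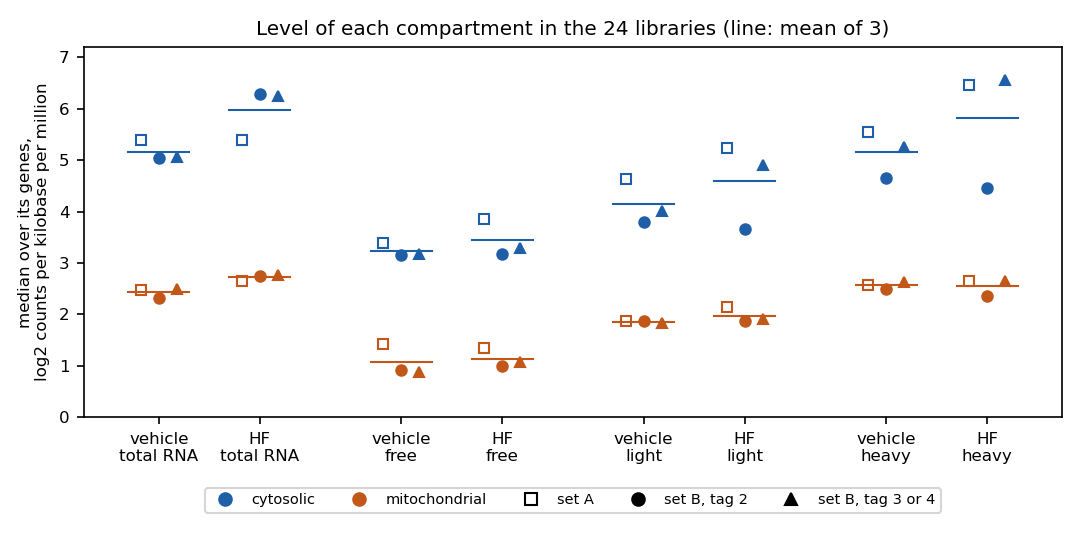
Median log2 level per kilobase of the 18 cytosolic (blue) and 14 mitochondrial (orange) synthetases in each of the 24 libraries, scaled within an RNA kind, by treatment (HF, halofuginone) and RNA kind; open squares are set A, circles tag 2, triangles tag 3 or 4, and lines the mean of 3. The compartments are 1.79 to 3.91 apart on the log2 scale, and the spread between libraries of a group is wider in the cytosolic genes on heavy polysomes.

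Across the 24 libraries the genes most like the mean profile of the cytosolic synthetases, out of 14028 other genes, were Prep, Atic, Gart, Sqstm1 and Ttc27, with Pearson correlations of 0.974, 0.971, 0.970, 0.969 and 0.960. Prep encodes a prolyl peptidase, Atic and Gart enzymes of purine synthesis, and Sqstm1 an autophagy receptor. These correlations are of log2 CPM centred on the median of each library over 8 groups that share the gradient. Within each kind of RNA, over 6 libraries, they were 0.925 to 0.985 for Prep and 0.931 to 0.999 for Sqstm1. Of the other members Rars2 was closest to that profile at 0.785, followed by Tars2 at 0.779 and Wars2 at 0.767, and Cars2 was farthest at -0.356. Within kinds the order differed: Tars2 had 0.926 to 0.985, Rars2 0.530 to 0.918, and Yars2, at 0.314 over all libraries, 0.718 to 0.978.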

How the data were processed

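The authors deposited whole-number counts per gene symbol for 24 libraries. Per the labels' protocols, RNA was taken with TRIzol and libraries were made with a stranded mRNA kit. The submitters' processing notes name the build GRCm38.p5, STAR 2.5.2b, Trimmomatic 0.36 and featureCounts of Subread 1.5.0p3; the strand setting is not given in the sources used here. The table held 0 columns of other samples. Columns matched groups by treatment and fractions, not single samples. The members, lists and named-gene rule were chosen with earlier results of these data known.

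Each RNA kind was fitted alone with edgeR 4.0.16 in R 4.3.3 (TMM, default expression filter, quasi-likelihood test, Benjamini-Hochberg threshold 0.05 over all genes tested), and differences of differences over 12 libraries. CPM is TMM-scaled within an RNA kind (over all pools where pools are compared), and levels per kilobase use merged exon lengths of GENCODE M21. The edgeR fits of total RNA, of its set B, and of heavy over ribosome-free pool in vehicle were tested on simulated data with a fixed spread. The other fits were not tested in this way. Values in every library were given for the 4 largest and 2 smallest changes of cytosolic genes in total RNA, the scaffold genes, and the 2 largest and 2 smallest of mitochondrial genes; other genes shown by library (Aars, Iars, Lars, Iars2, Yars2, Wars2, Nars) were chosen after their values were seen.

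Same-tag libraries of the 2 treatments deviated together across genes in the ribosome-free (correlations 0.790 to 0.911), light (0.383 to 0.779) and heavy pools (0.360 to 0.764), and those of ribosome-free and heavy pools did so at 0.296 to 0.474 in vehicle and 0.214 to 0.412 with halofuginone. In total RNA the same-tag correlations (-0.0046 to 0.389) lay within the range of those between different tags (-0.424 to 0.437). There the tags did not set pairs of libraries apart. Alternatives were DESeq2 1.42.0, other size factors, no filter, a block by tag, the set as a covariate, set B alone and leaving out libraries. Depth limits low members most: the fewest counts of a member were 42 (Nars2, ribosome-free pool with halofuginone), and Aars2 had 47 and Iars 54 in that pool of vehicle cells. Some items are not reported here.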

Additional observations from a re-analysis of the deposited data

Results flagged for a closer look

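For 2 mitochondrial synthetases the same-tag difference between halofuginone and vehicle had the same sign in every pair of a kind of RNA. In every pair of another kind it had the opposite sign. The contrast was not tested, and how many of all genes show such a pattern was not counted. In total RNA the tags did not set pairs of libraries apart, and several of the values below lie close to 0. For Iars2 the median same-tag log2 difference was -0.0676 in total RNA, where all 3 pairs were below 0, while all 3 pairs of light polysomes were above 0. For Lars2 it was 1.6174 in total RNA and 0.2548 in the ribosome-free pool, each above 0 in all 3 pairs, while all 3 pairs of light polysomes were below 0, the tag 4 pair by no more than -2.5e-05. The median of Lars2 in light polysomes was -0.3547, and all 3 pairs of heavy polysomes were above 0. Groups of 3 libraries were too small to look for single outlying samples.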

How the results depend on the processing

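Among the alternatives run, no member past the threshold changed sign. The count of called members in total RNA was 5 by DESeq2, 30 in set B alone and 0 to 30 when leaving out a library. Heavy over ribosome-free pool gave, in vehicle, 19 called members in set B alone, 0 without both tag 2 libraries of each pool, and 9 to 22 when leaving out a library; with halofuginone it gave 19 by DESeq2, 20 with no filter and 2 to 16 when leaving out a library. The cytosolic minus the mitochondrial median was 0.89 in set B of total RNA without Gars and Kars. In the ribosome-free pool it was -0.010 in set B alone and -0.074 to 0.43 when leaving out a library from the fit of both sets. For heavy over ribosome-free pool in vehicle it was 0.56 to 1.09 when leaving out a library. The block by tag, for libraries paired as described, gave 15 called members for heavy over ribosome-free pool in each treatment and 0 in the other comparisons that called 0; in total RNA, where tags did not pair libraries, it gave 0, and 30 in set B. Of 2191 values of single members under an alternative, 1916 kept direction and side of the threshold, 142 newly passed, 69 no longer passed and 64 changed sign; the cause was not tested. For the drug effect in total RNA, values that changed sign were, with the block by tag, Fars2 -0.0035. With the set as a covariate, Fars2 -0.0040. With set B alone, Fars2 -0.20. Leaving out a library gave Mars -0.077 to 0.24, Fars2 -0.22 to 0.15. For the drug effect on heavy polysomes, values that changed sign were, with DESeq2, Hars 0.0064, Fars2 0.0034. With RLE factors, Hars 0.0079, Fars2 0.00045, Hars2 0.00019. With no filter, Hars 0.0074, Fars2 0.018, Hars2 0.0041. With the block by tag, Fars2 0.014, Vars2 -0.015. With the set as a covariate, Fars2 0.025, Vars2 -0.012. With set B alone, Hars 0.021, Vars2 -0.20. With no tag 2 libraries, Hars 0.095. Leaving out a library gave Hars -0.12 to 0.17, Aars2 -0.39 to 0.15, Lars2 -0.63 to 1.49, Vars2 -0.15 to 0.15, Fars2 -0.18 to 0.24, Hars2 -0.069 to 0.063, Iars2 -0.067 to 0.33, Iars -0.016 to 1.14, Mars -0.11 to 0.55, Farsa -0.22 to 0.55, Cars2 -0.29 to 0.042, Rars2 -0.080 to 0.55. For the drug effect on heavy polysomes minus total RNA, values that changed sign were, with set B alone, Mars -0.088. Leaving out a library gave Mars -0.16 to 0.51, Lars2 -1.93 to 0.19. For the heavy over ribosome-free pool in vehicle, values that changed sign were, with no filter, Yars2 0.092. With set B alone, Mars2 -0.051, Yars2 0.044. With no tag 2 libraries, Wars2 -0.0027. Leaving out a library gave Yars2 -0.18 to 0.072, Farsb -0.12 to 0.46, Sars2 -0.024 to 0.29, Wars2 -0.054 to 0.30, Mars2 -0.12 to 0.34. For the heavy over ribosome-free pool with halofuginone, values that changed sign were, with no filter, Eef1e1 0.074. With the block by tag, Eef1e1 0.044. With the set as a covariate, Eef1e1 0.061. With set B alone, Eef1e1 0.68. Leaving out a library gave Eef1e1 -0.40 to 0.55.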
